A study of Mus musculus with 4 samples.

Results

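The Gm428 cluster is a set of near-identical predicted protein-coding genes on mouse chromosome 4, lying between positions 73401032 and 73905953 of GRCm38. It was taken here as the 7 symbols Gm11487, Gm11238, Gm11237, Gm11236, Gm11239, Gm428 and Gm13871, of 24190 symbols listed, and these hold 10 of the 58853 listed transcripts. The genes were picked by name with their levels in these same libraries known, so their separation between GFP-positive and GFP-negative cells is described and not tested. Levels are TPM (transcripts per 1000000 transcripts, a share scaled by length) summed per gene. Messenger RNA came from ES-E14TG2a, a male mouse embryonic stem cell line kept in serum-free medium with inhibitors of MEK and GSK3β. In the GFP-Zscan4c line a stably integrated promoter of Zscan4c drove a fusion of GFP to Zscan4c, hence fusion line, and in the GFP line the same promoter drove GFP alone. Cells of both lines were sorted into GFP-positive cells, called 2C-like in the labels, and GFP-negative cells, called pluripotent. Each line is clonal, per the design text, and each of the 4 populations was sequenced as 1 library, so no value has a replicate error. Every clone carries the reporter, and cells without it were not analysed here.

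Cells that resemble the 2-cell embryo arise at low frequency in cultures of mouse embryonic stem cells. They transcribe genes that are switched on when the zygotic genome is first activated, many of which form tandem arrays of recent gene copies. Zscan4c is one of them, and the transcription factor Dux acts upstream of the programme. The annotation gives the members of the Gm428 cluster only predicted-gene symbols, and no role is assigned to them here.

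The cluster has 2 sequence types and an outlying copy. The 5 members Gm11238, Gm11237, Gm11236, Gm11239 and Gm428 lie on the plus strand, Gm13871 on the minus strand to their right and Gm11487 on the minus strand to their left. Exon 4, of 78 bases and coding throughout, is shown for 1 or more genes of each type because it holds bases that separate them; capitals mark bases that differ from Gm428, read 5′ to 3′ on the gene's strand from the GENCODE M21 transcripts (GRCm38).
Gm428 (chr4:73685475-73685552, plus strand): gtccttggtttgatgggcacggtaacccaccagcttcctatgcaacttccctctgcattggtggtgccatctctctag
Gm11237 (chr4:73624946-73625023, plus strand): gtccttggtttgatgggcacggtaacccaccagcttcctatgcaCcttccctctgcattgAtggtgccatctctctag
Gm11487 (chr4:73403038-73403115, minus strand): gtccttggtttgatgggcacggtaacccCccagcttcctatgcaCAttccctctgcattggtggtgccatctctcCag
Gm13871 (chr4:73903912-73903989, minus strand): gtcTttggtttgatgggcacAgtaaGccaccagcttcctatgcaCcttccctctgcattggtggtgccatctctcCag
In this exon Gm11237 differed from Gm428 at 2 bases, as did Gm11238 and Gm11236, Gm11487 differed at 4 and Gm13871 at 5, while Gm11239 was identical to Gm428.

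Promoter sequences, from 250 bases before to 50 after a start position, were given by RefSeq (GRCm38.p6) for 3 of the 7 members. They are shown because these copies lie far apart and were all listed above 0 in GFP-positive cells only; capitals mark matches to the motifs searched.
Gm428 (chr4:73683264-73683563, plus strand): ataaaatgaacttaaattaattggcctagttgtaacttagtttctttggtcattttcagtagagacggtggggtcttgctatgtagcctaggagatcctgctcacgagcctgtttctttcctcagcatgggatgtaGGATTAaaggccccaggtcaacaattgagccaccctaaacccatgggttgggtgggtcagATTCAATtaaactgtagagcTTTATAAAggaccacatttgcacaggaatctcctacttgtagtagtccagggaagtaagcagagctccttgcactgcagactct
Gm11487 (chr4:73405023-73405322, minus strand): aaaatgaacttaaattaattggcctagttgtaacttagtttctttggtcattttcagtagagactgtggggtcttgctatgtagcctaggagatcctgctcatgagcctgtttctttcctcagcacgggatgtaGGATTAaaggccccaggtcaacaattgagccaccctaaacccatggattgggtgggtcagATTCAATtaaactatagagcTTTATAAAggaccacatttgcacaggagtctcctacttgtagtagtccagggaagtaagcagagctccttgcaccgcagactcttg
Gm13871 (chr4:73905872-73906171, minus strand): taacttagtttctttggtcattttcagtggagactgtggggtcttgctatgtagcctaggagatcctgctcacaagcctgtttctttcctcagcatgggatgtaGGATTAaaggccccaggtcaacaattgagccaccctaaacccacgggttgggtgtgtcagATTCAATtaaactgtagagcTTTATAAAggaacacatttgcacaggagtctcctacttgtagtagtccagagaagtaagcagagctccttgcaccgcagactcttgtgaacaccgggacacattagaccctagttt
Over their overlapping columns, the promoters of Gm11487 and Gm428 were 97.7% identical (7 differences in 298 columns). Those of Gm13871 and Gm428 were 96.6% identical (9 differences in 268 columns). The 5 motifs, chosen with these sequences in view, were searched for on both strands. Since the 3 promoters are similar copies, their matches are not independent. A TATA box (TATAAA) and the core bound by Otx-type homeodomain proteins (GGATTA) were found in all 3, against 13.6% and 7.06% of the 32851 RefSeq promoters of this length. From the start used for each window, the TATA match began at position -32 in Gm428, -34 in Gm11487 and -64 in Gm13871. A reverse-strand match overlapped it in each. These starts are not placed alike, so the positions are not on one scale. The RefSeq genes of Gm428 (from 73681151) and Gm11487 (to 73407404) reach beyond their windows on the upstream side. The start for Gm13871 is the edge of its RefSeq gene (73905921), inside the edge of its GENCODE gene (73905953). The palindromic centre of the Dux site (ATTNAAT, in 5.78% of all promoters) was found in all 3 as well, starting at -54 in Gm428, -56 in Gm11487 and -86 in Gm13871. The Zscan4 motif (TGCACAC, in 4.40%) and a CA repeat (CACACAC, in 7.79%) had no match in these 3 windows. The first 3 motifs are not particular to members. They were found in all 6 promoters of the family, among them those of the neighbouring copies Gm11756, Gm11757 and Gm11758, which are not members. The promoter of Gm11757 was identical to that of Gm13871 over 300 columns. Gm11757 was at 0 TPM in GFP-positive cells from the GFP line, but its transcript differs from that of Gm13871 at 1 aligned column. How reads were split between these copies is unknown, and a link between promoter and level was not tested.

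The copies are hard to tell apart by short reads. All 7 members have a 6-exon transcript of 1322 to 1324 bases. It encodes a predicted 360 residues in 6 members and 354 in Gm11487. Identity between these transcripts, as the share of identical columns in a global alignment, was 99.2% to 99.7% among the 5 plus-strand members, which differ from each other at 4 to 10 columns. Gm13871 was 96.7% to 96.9% identical to those 5, and Gm11487 was 96.6% to 96.8% identical to them. Gm13871 and Gm11487 were the most distant pair, at 96.2%.

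**Figure D1:**
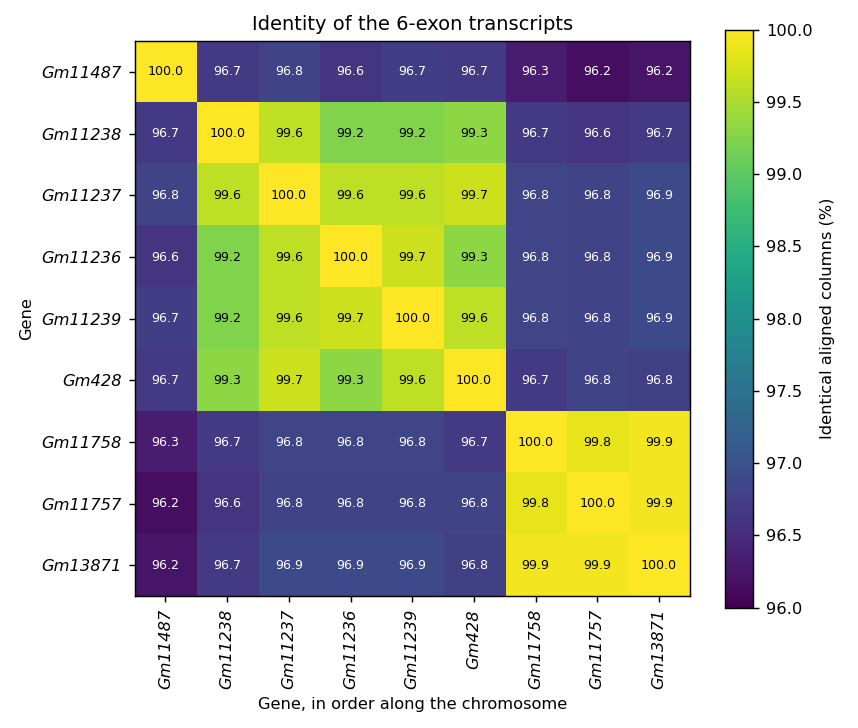
Heat map of the percentage of identical aligned columns between the 6-exon transcripts of the 7 members and of the neighbouring copies Gm11757 and Gm11758, in chromosome order on both axes. The 5 plus-strand members form a block at 99.2% or more and the 3 minus-strand copies on the right a block at 99.8% or more.

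Of the 50-base words of Gm11237, 0 of 1273 were found in no other annotated gene, and of Gm13871 0 of 1275. The share of such private words was 0.550% for Gm11239, 4.01% for Gm11236, 4.08% for Gm428 and 11.3% for Gm11238. Gm11487 had 57.9%, so its level rests on more sequence of its own than that of any other member. Single plus-strand members and Gm13871 thus share most of the sequence on which their levels rest, and those levels are uncertain where the authors' counting could split reads between copies.

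The libraries differ in how many genes they list at 0. In GFP-positive cells 11.6% of symbols were at 0 in the fusion line and 11.8% in the GFP line, and in GFP-negative cells 19.5% and 48.4%. The listed TPM sum to 66.6% to 69.1% of the full 1000000, and the read depth is unknown. The last library stands apart: 35.8% of symbols that averaged 5 to 20 TPM across the remaining libraries were at 0 in it, so a 0 there cannot be read as absence. In GFP-negative cells of the fusion line the matching share was 1.68%, but a 0 there cannot be read as absence either. Rps3a1, which encodes a ribosomal protein needed by every cell, was at 499.9 TPM in GFP-positive and 0 TPM in GFP-negative cells of that line. In those from the GFP line it was at 591 and 0 TPM. Zscan4c separated the sorted populations, at 366 TPM in GFP-positive and 4.11 TPM in GFP-negative cells of the fusion line, and at 497 and 9.24 TPM in those from the GFP line; reads of the fusion transgene may fall on it. Duxf3, a Dux gene, was at 7.36 and 0.378 TPM, and in the GFP line at 7.72 and 0.134 TPM. Of 26 listed 2C-like markers, 21 of the 22 at 5 TPM or more in either library were 2-fold or more higher in GFP-positive cells of the fusion line, and 22 of 23 in the GFP line. Over all genes compared, 8.23% were higher in the fusion line and 33.2% in the GFP line. The marker lists were chosen with earlier results of these data known, so nothing is read from their counts. The 10 pluripotency genes summed to 3254 TPM in GFP-positive and 3142 TPM in GFP-negative cells of the fusion line, and to 3113 and 3901 TPM in those from the GFP line. In the fusion line 3 of the 10 were 2-fold or more higher in GFP-positive cells and 0 lower. Those were Klf4 (118 and 40.1 TPM), Tbx3 (102 and 32.0 TPM) and Dppa3 (8.58 and 3.40 TPM). In the GFP line, of 9 at 5 TPM or more, Tbx3 was higher (101 and 29.1 TPM) and Klf4 lower (69.5 and 187 TPM). Markers of other cells did not all stay level either. The 5 listed fibroblast markers summed to 186 and 8.28 TPM, then 203 and 310 TPM, most of it Vim, with Col1a1 at 0.114 TPM or less and Col1a2 at 0.0646 TPM or less in every library. Thy1 was at 7.27 TPM in GFP-positive and 0 TPM in GFP-negative cells of the fusion line, and at 11.9 and 0 TPM in those from the GFP line. Pdgfrb was at 1.58 TPM in GFP-positive cells from the GFP line and at 0 in the other libraries. The 3 primitive endoderm markers summed to 3.07 and 0.648 TPM, then 2.22 and 0 TPM, with Gata4 at 2.13 TPM or less and Sox17 at 0.947 TPM or less in every library. The 4 trophectoderm markers summed to 26.8 and 34.0 TPM, then 36.1 and 39.4 TPM, most of it Tfap2c. Eomes was at 3.42 and 0 TPM in the fusion line, then 2.64 and 0 TPM, and Krt8 was at 8.51 TPM in GFP-positive cells from the GFP line and at 0 in the other libraries. The part of these markers in the levels of the cluster was not tested.

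Every member of the cluster was listed above 0 in each GFP-positive library, and all 10 of their transcripts were at 0 in each GFP-negative library. Gm428 was at 45.5 TPM in GFP-positive and 0 TPM in GFP-negative cells of the fusion line, and at 13.4 and 0 TPM in those from the GFP line. Gm11238 was at 44.9 and 0 TPM in the fusion line and at 13.6 and 0 TPM in the GFP line. The next plus-strand copy, Gm11237, was at 45.7 and 0 TPM, then 13.9 and 0 TPM. These 3 genes therefore had nearly the same levels within each GFP-positive library, with the fusion line above the GFP line. Gm11236 was at 41.8 and 0 TPM in the fusion line and at 12.6 and 0 TPM in the GFP line. For Gm11239 the values were 42.1 and 0 TPM, then 11.8 and 0 TPM. All 5 plus-strand members thus lay within a factor of 1.09 of each other in GFP-positive cells of the fusion line and of 1.18 in those from the GFP line, and without replicates no order among them can be given.

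The 2 minus-strand members were lower. Gm11487 was at 15.2 TPM in GFP-positive and 0 TPM in GFP-negative cells of the fusion line, and at 3.09 and 0 TPM in those from the GFP line. Gm13871 was at 8.84 and 0 TPM in the fusion line and at 3.64 and 0 TPM in the GFP line. Gm11487 was the higher of the pair in the fusion line and the lower in the GFP line. The mean of the 5 plus-strand members was 3.66 times that of the 2 minus-strand members in GFP-positive cells of the fusion line and 3.88 times in those from the GFP line. Plus-strand members made up 90.1% of the members' summed TPM in the first of these libraries and 90.7% in the second.

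**Figure D2:**
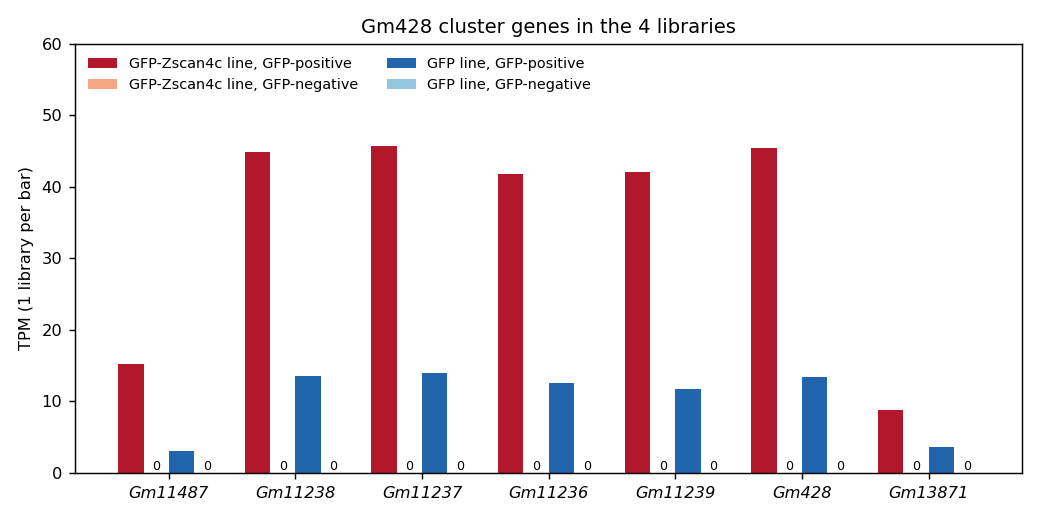
Bars give the TPM of each of the 7 members, in chromosome order, in the 4 libraries (1 library per bar, no error bars; a 0 marks a gene listed at 0). The 5 plus-strand members stand at 41.8 to 45.7 TPM in GFP-positive cells of the fusion line and at 11.8 to 13.9 TPM in those from the GFP line, and every GFP-negative value is 0.

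Summed over the 7 members, the level was 244 TPM in GFP-positive and 0 TPM in GFP-negative cells of the fusion line, and 72.1 and 0 TPM in those from the GFP line. Since the lower value is 0 and no counts are known, no fold change is given. In bulk RNA, fewer cells with these transcripts and less of them per cell cannot be told apart. All 7 members passed the minimum of 5 TPM in either library of the fusion line, and 7 of 7 were 2-fold or more higher on the log2(TPM + 1) scale, where 8.23% of the 10981 genes compared were (904 higher and 345 lower). In the GFP line 5 members passed the minimum and 5 of 5 were higher, where 33.2% of 11062 genes were (3676 higher and 827 lower), while Gm11487 and Gm13871 fell short of it. These contrasts were known when the members were picked, so nothing is read from the counts. Quantile normalization left the member counts as they were and turned the splits over all genes to 647 higher and 499 lower, and to 2618 and 2480. The median log2(TPM + 1) difference of the members tested was 5.43 in the fusion line and 3.85 in the GFP line, beside 0.14 and 0.19 over all genes, and with zeros below it this size is set by the pseudocount of 1 TPM.

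How unusual a 0 is at these levels differs between the lines. Of 5921 symbols within the members' range of 8.84 to 45.7 TPM in GFP-positive cells of the fusion line, 89 (1.50%) were at 0 in its GFP-negative cells. Of 4819 symbols within the range of 3.09 to 13.9 TPM in GFP-positive cells from the GFP line, 2108 (43.7%) were at 0 in its GFP-negative cells. A listed 0 cannot be read as absence in either GFP-negative library, given the values of Rps3a1. Of 4417 symbols at 0 in both GFP-negative libraries, 158 were at 3 TPM or more in both GFP-positive ones. That minimum was set with the values known, just under the lowest member, so it takes in all 7 members by construction; at 5 TPM or more there were 87 symbols, 5 of them members. By the smaller of the GFP-positive values, Rps3a1 headed the 158, while Gm11237, Gm11238 and Gm428 ranked 14th to 16th of the 158, Gm11236 21st, Gm11239 26th, Gm13871 129th and Gm11487 154th.

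**Figure D3:**
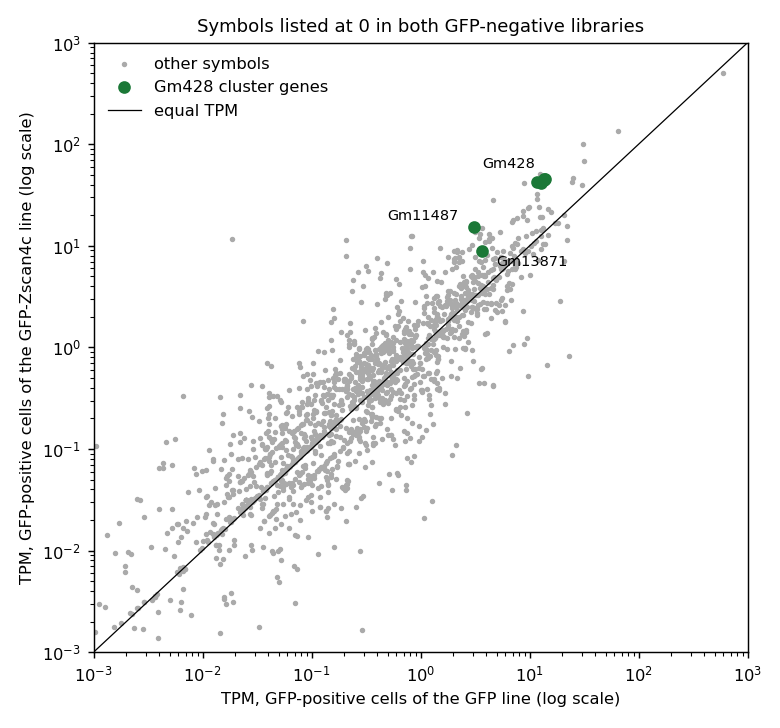
Each point is 1 of 1593 symbols at 0 in each GFP-negative library and at 0.001 TPM or more in both GFP-positive ones, with TPM in GFP-positive cells from the GFP line on the x axis and of the fusion line on the y axis, both logarithmic. The 7 cluster genes (green) lie above the line of equal TPM, among 1015 of the 1593 symbols drawn (63.7%), 309 of them at or above the lowest ratio of a member.

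The lines were compared in GFP-positive cells, where all 7 members were above 0 in both. Each was higher in the fusion line than in the GFP line. The ratio was 3.39 for Gm428, 3.30 for Gm11238, 3.28 for Gm11237, 3.32 for Gm11236 and 3.57 for Gm11239. It was 4.93 for Gm11487 and 2.43 for Gm13871, the extremes of the set. The summed level was 244 TPM against 72.1 TPM, a ratio of 3.39. On the log2(TPM + 1) scale 7 of 7 members were 2-fold or more higher in the fusion line, with a median difference of 1.65 (1.08 to 1.99), where 5.71% of 11126 genes were higher and the median over all genes was 0.05. These values too were known when the members were picked, and the members are similar copies that can share reads, so nothing is read from this count. Of 11027 symbols above 0 in both of these libraries and at 5 TPM or more in either, the middle 90% had ratios between 0.543 and 2.21, with a median of 1.03. The 2C-like markers were also higher in the fusion line, 15 of 24 by 2-fold or more and 2 lower, with a median ratio of 2.17, a range of 0.0351 to 5.17 and no test of the difference from the members. Zscan4c and Duxf3 had ratios of 0.735 and 0.953. The purity of the sorted cells was not measured, and its part in the difference between the lines was not tested. Each line is clonal and gave 1 library of these cells, so construct, clone, sort and library cannot be told apart. In GFP-negative cells the lines cannot be compared for this cluster, since all members were at 0 in both.

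**Figure D4:**
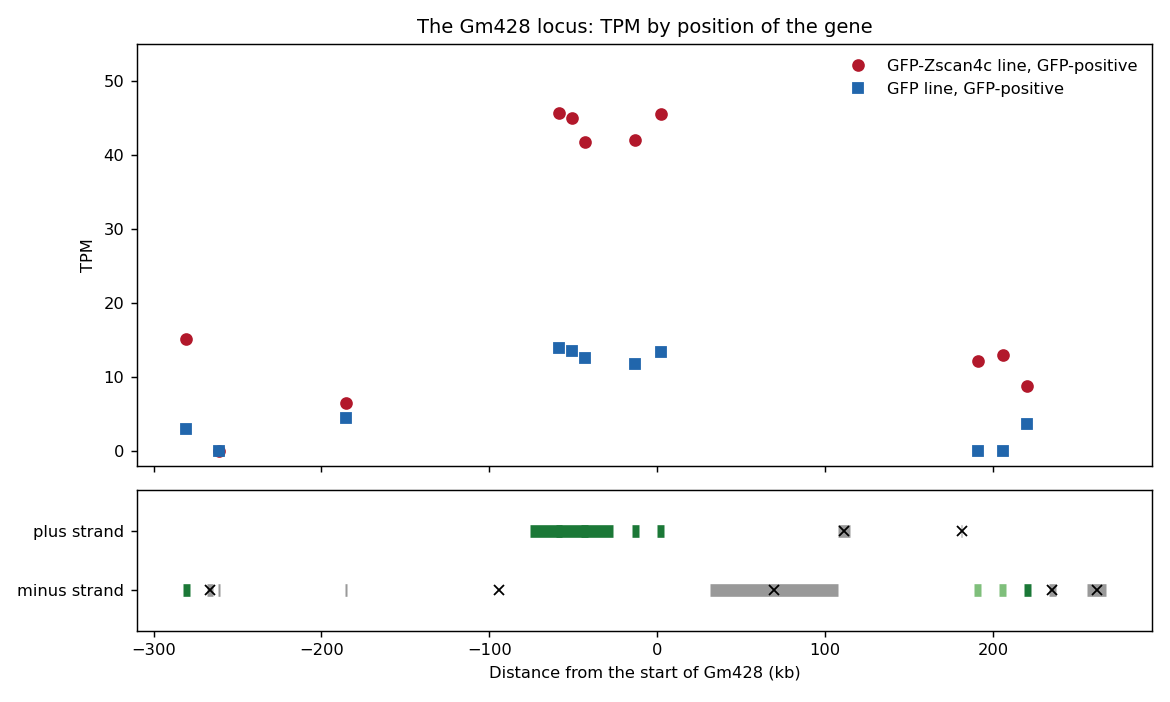
Upper panel, TPM of the listed genes around the cluster in GFP-positive cells of the fusion line (circles) and the GFP line (squares), by distance from the start of Gm428 in kb. Lower panel, annotated genes by strand, with members in dark green, Gm11757 and Gm11758 in light green, other genes in grey and a cross on genes that were not listed. The 5 plus-strand members reach 41.8 to 45.7 TPM, and the copies at either side stay at 15.2 TPM or less.

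By position, the plus-strand members occupy one array. Gm11237 (73622984 to 73627027), Gm11236 (73638121 to 73642161), Gm11239 (73668354 to 73672396) and Gm428 (73683516 to 73687558) each span about the same length in the GENCODE annotation. Gm11238 is annotated from 73607881 to 73657291 and covers Gm11237 and Gm11236 on the same strand. Its first 2 exons lie in the interval that RefSeq gives to another gene, Gm38423 (73605544 to 73611922), and its other exons in the interval that RefSeq gives to Gm11238 (73650910 to 73657292). The level of Gm11238 may thus combine reads of more than 1 copy, which was not tested.

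Within the same interval 2 further copies, Gm11758 (73872219 to 73876266) and Gm11757 (73887066 to 73891112), were listed but are not members. Each differs from Gm13871 (73901907 to 73905953) at 1 aligned column. Gm11757 was at 13.1 and 0 TPM in GFP-positive and GFP-negative cells of the fusion line, and at 0 TPM in both populations of the GFP line. Gm11758 was at 12.3 and 0 TPM in the fusion line and likewise at 0 TPM in the GFP line. Among these 3 near-identical genes, then, GFP-positive cells of the fusion line have listed signal on all of them and those from the GFP line on Gm13871 alone. Of the 1275 words of 50 bases in Gm13871, 0 are private to it, so the split of reads among the 3 genes is uncertain. A difference between the lines in any 1 of them cannot be read from these values. The sum of the 3 genes was 34.2 TPM in GFP-positive cells of the fusion line and 3.64 TPM in those from the GFP line, a ratio of 9.37, where Gm13871 by itself gave 2.43. With Gm11757 and Gm11758 added to the 7 members, the summed ratio between lines in GFP-positive cells was 3.74, against 3.39 for the members. Another copy on that side, Gm11756, was not listed, so no level is given for it.

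For 3 members more than 1 transcript is listed. Gm13871 has a 6-exon form at 5.77 TPM and a form without exons 4 and 5 at 3.07 TPM in GFP-positive cells of the fusion line, and at 3.64 and 0 TPM in those from the GFP line. The shorter form was 34.7% of Gm13871 in the fusion line, and the matching forms were 35.0% of Gm11757 and 34.6% of Gm11758. These shares are close to each other in genes that share nearly all their sequence, so they are not 3 independent measurements. Gm11239 was carried by its 6-exon form, at 41.5 TPM in GFP-positive cells of the fusion line and 11.3 TPM in those from the GFP line, with its 5-exon form at 0.596 and 0.470 TPM. For Gm11487 the 6-exon form was at 14.8 and 3.09 TPM and a 2-exon form at 0.374 and 0 TPM.

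Most other listed genes of the region had signal in GFP-negative cells. Within 1 Mb of the cluster on either side, 12 of 25 other annotated symbols were listed, and 6 of them, including Gm11757 and Gm11758, reached 5 TPM in any library. Kdm4c, a histone H3 lysine demethylase gene, was at 33.8 and 32.5 TPM in GFP-positive and GFP-negative cells of the fusion line, and at 26.5 and 2.14 TPM in those from the GFP line. Of the processed pseudogenes, Gm11488 was at 6.57 and 4.23 TPM, then 4.55 and 6.55 TPM. Gm11405 was at 3.37 and 3.64 TPM, then 4.45 and 6.49 TPM. Gm11258 was at 1.28 and 1.08 TPM, then 0.945 and 6.82 TPM. None of these 4 was at 0 in a GFP-negative library, and the 6 remaining listed symbols stayed below 5 TPM in every library.

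The genes whose pattern was most like the members' were found by the Euclidean distance between profiles over the 4 libraries, with each gene's log2(TPM + 1) values centred on their own mean, among the 14372 symbols that reached 1 TPM in 2 or more libraries. The nearest were Gm4778 (distance 0.205), Gm21762 (0.237), Obox4-ps11 (0.259), BC080695 (0.272), Obox4-ps20 (0.305) and AC133095.2 (0.318), against a median of 4.11 over all symbols compared. Obox4-ps11 and Obox4-ps20 are pseudogenes of the homeobox gene Obox4. Gm4778 was at 28.1 and 0.102 TPM in GFP-positive and GFP-negative cells of the fusion line, and at 10.1 and 0 TPM in those from the GFP line. BC080695 was at 32.3 and 0 TPM, then 11.7 and 0 TPM. The members themselves lay 0.411 to 0.575 from their mean profile on the plus strand, with Gm11487 at 1.15 and Gm13871 at 1.45. With a pseudocount of 0.1 TPM, 3 of the 6 nearest genes were the same.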

How the data were processed

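The deposited tables give TPM per transcript, 1 table per library, as the authors computed them. CASAVA, HISAT2 2.1.0 and StringTie 1.3.5 and the build GRCm38 (mm10) are named in the submitters' processing notes. Not given in the sources used here: their options, the annotation release and how transcripts were chosen for listing. Normalization to 1000000 is within each library, and it keeps no read counts, so the depth is unknown and counting intervals are left out.

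TPM were summed per symbol in Python 3.11.15 with pandas 2.3.3. The members and lists were chosen with earlier results of these data known. For each pair of libraries, symbols at 5 TPM or more in either library were counted as called where log2(TPM + 1) differed by 1 or more (2-fold); the scale understates the change of low genes. With 1 library per group no test was run and no p-value is given, and nothing says that the lines came from separate cultures. Named genes were the 7 members, listed neighbours within 1 Mb at 5 TPM or more in any library, the 6 genes of nearest profile, Zscan4c and Duxf3. The other genes named (Gm11756, Gm38423, Rps3a1, Klf4, Tbx3, Dppa3, Thy1, Pdgfrb, Tfap2c, Eomes, Krt8, Vim, Col1a1, Col1a2, Gata4 and Sox17) were added after their values or positions were seen. Positions and transcripts came from GENCODE M21 (GRCm38) and promoters from RefSeq (GRCm38.p6). Transcripts were aligned globally with Biopython 1.88 (match 1, mismatch -1, gap opening -2, gap extension -0.5), and words of 50 bases were looked up in all GENCODE transcripts. The counting, profile and word steps were tested on simulated data. The simulated levels held no zeros, unlike the members' levels in GFP-negative cells. Alternatives were pseudocounts of 0.1 and 5 TPM, other scalings, other filters and words of 31 and 100 bases.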

Additional observations from a re-analysis of the deposited data

How the results depend on the processing

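No paired analysis was possible because no result here comes from a test; GFP-positive and GFP-negative cells were compared within their own line, with 1 library each. Median-ratio scaling, quantile normalization, rescaling to the same listed total, both pseudocounts and dropping the filter kept the count of members 2-fold or more apart within 1.5 times in each comparison. Requiring genes above 0 in both libraries left 0 members in either GFP contrast, since all are at 0 in GFP-negative cells. The count over all genes was 1249, 4503, 1086 and 4120, in the order fusion line, GFP line, GFP-positive cells and GFP-negative cells. With no filter it was 2402, 7023, 2105 and 6319. With genes above 0 in both libraries it was 2345 in the GFP line and 2167 in GFP-negative cells, and with a pseudocount of 5 TPM it was 639 in GFP-positive cells. Set against the GFP-negative library of the fusion line, a choice made after seeing the data, GFP-positive cells from the GFP line gave 1194 genes and the same member count of 5. That member count could not change, since all members are at 0 in each GFP-negative library. Quantile normalization gave 2573 higher and 2341 lower in GFP-negative cells, against 3214 and 906 as deposited. Median-ratio scaling moved the median difference of all genes in the fusion line to -0.01, against 0.14 as deposited, and that of the members to 5.36. The summed ratio of the members between lines in GFP-positive cells, 3.39, was 3.31 with median-ratio scaling, 3.73 with quantile normalization, 3.35 after rescaling and 3.41 without Gm11237. Where the lower sum is 0, no ratio could be given, and no member is above 0 in all libraries. The median share of a member's words found in another member was 95.8% for 50 bases, 97.4% for 31 and 91.6% for 100. With a pseudocount of 5 TPM, 5 of the 6 genes of nearest profile were the same. The causes of these shifts were not tested, beyond the genes each filter removes.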
